A study of Homo sapiens with 6 samples.

Results

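The genes that encode the protein subunits of oxidative phosphorylation were followed in HCT116 cells, an established human colorectal carcinoma cell line, with and without shikonin, a naphthoquinone found in gromwell roots. Members were chosen by gene symbol alone. The symbols were those of the complex I subunits (NDUFA, NDUFB, NDUFC, NDUFS and NDUFV), SDHA to SDHD, CYC1 and the UQCR genes, the COX4 to COX8 genes, the ATP5 genes, and the protein genes of mitochondrial DNA. First, 147 pseudogenes were left out and 2 readthrough loci were set aside. Of 35106 gene identifiers in the table, 102 then matched, 89 in the nuclear genome and 13 in mitochondrial DNA. Of these 102 members, 94 had enough counts to be tested, 81 nuclear and all 13 mitochondrial. They are part of the 13548 genes tested in all.

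The control group held 3 libraries whose treatment is labelled none, and the shikonin treatment group held 3 libraries from cells given 8 μM shikonin for 24 h according to the labels. All were wild type HCT116 cells in medium with serum. The methods of the study state a lower concentration than the labels, so the dose is uncertain, and every direction below follows the sample labels. Nothing in the sources used here states that replicate libraries were grown as separate cultures. The p-values therefore measure only the spread between these libraries, and this one cell line is the only model. Total counts lay between 18845690 and 21765806 per library. The 5 epithelial markers EPCAM, KRT8, KRT18, KRT19 and CDH1 were high in every library, from 252 to 1340 CPM (CPM is the count of a gene scaled to a common library total, after adjustment by the trimmed mean of M values). PTPRC, COL1A2 and PECAM1, which mark blood cells, fibroblasts and endothelium, had at most 4 counts in any library, and COL1A1, a fibroblast collagen, lay between 26.5 and 35.1 CPM. Values are levels of RNA in a bulk of cells, in which fewer cells making a transcript and less transcript per cell cannot be told apart.

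Oxidative phosphorylation couples the flow of electrons from NADH and succinate to oxygen to the synthesis of ATP. Complexes I, III and IV of the inner mitochondrial membrane pump protons, complex II feeds electrons from succinate without pumping, and complex V, the ATP synthase, uses the returning protons to make ATP. The subunits come from both genomes. Mitochondrial DNA encodes the hydrophobic cores of complexes I, III, IV and V as long transcripts from both strands that are cut into single messengers, whereas the nucleus encodes all of complex II and most subunits of the others. Many nuclear subunit genes are known targets of NRF1 (nuclear respiratory factor 1), of GABPA, a factor of the ETS family, and of YY1. Shikonin, like other naphthoquinones, can take part in redox cycling.

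Sequences are shown first for the places where the members cannot be counted apart from each other, and then for the promoters of members that rose. The mitochondrial genome (chrM, 16569 bases, plus strand as in GRCh38) packs its genes closely. MT-ATP8 and MT-ATP6, which encode a short and a proton-channel subunit of complex V, share 46 bases at chrM:8527-8572, shown in capitals with flanks at chrM:8515-8584. MT-ND4L and MT-ND4 of complex I share 7 bases at chrM:10760-10766, shown in capitals at chrM:10748-10778.
MT-ATP8 and MT-ATP6: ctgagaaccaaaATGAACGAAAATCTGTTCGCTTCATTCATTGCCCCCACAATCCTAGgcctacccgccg
MT-ND4L and MT-ND4: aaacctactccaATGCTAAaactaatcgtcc
The capitals of each line open with the ATG of the downstream gene. MT-ATP6 and MT-CO3 share 1 base, and MT-ND5 and MT-ND6 lie on opposite strands with 0 bases between them. How reads over shared bases, or reads of opposite strands, were assigned is not given in the sources used here, so the values of these neighbours are uncertain.

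Promoters from 250 bases before to 50 bases after the start were taken from RefSeq on GRCh38.p14, and 66 of the 81 nuclear members matched, among them 8 of the 11 that rose. The letters GCGCATGCG of the NRF1 motif, on either strand, were in 10 of the 66 promoters (15.2%), against 1.92% of all 35116 promoters of the table and 2.36% of those of protein-coding genes. The ETS letters CCGGAAG were in 20 (30.3%), against 10.3% of all and 12.8% of protein-coding promoters. The YY1 letters AAGATGGCG were in 7 (10.6%), against 1.75% and 2.41%. At least 1 of the 3 was in 45.5% of the members' promoters and in 13.1% of all promoters. This combined share was not taken for protein-coding promoters alone. For members 1 promoter per symbol was used, whereas every promoter of the table was counted in the comparison. The ETS letters end and the YY1 letters begin with AAG, so these motifs can overlap, and GCGCATGCG nearly reads the same on both strands, so 1 site can match on both. Of the 8 matched promoters of members that rose, 1 held the NRF1 letters, 1 the ETS letters and 0 the YY1 letters, whereas among the 58 matched promoters of members that did not pass, these were in 15.5%, 32.8% and 12.1%. With 8 promoters, 1 match more or less would change these shares a great deal, and a match of letters is not a bound site. Stretches around the match are shown with the motif in capitals, first for the 2 members that rose and then for 3 that did not pass the test.
UQCRH, ETS letters on the reverse strand, chr1:46303632-46303680, plus strand: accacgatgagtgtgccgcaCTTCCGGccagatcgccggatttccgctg
ATP5MC2, NRF1 letters on the reverse strand, chr12:53676096-53676144, minus strand: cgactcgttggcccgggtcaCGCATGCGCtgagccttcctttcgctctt
ATP5F1C, NRF1 letters on both strands, chr10:7788135-7788184, plus strand: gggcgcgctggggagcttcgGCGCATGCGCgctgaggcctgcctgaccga
NDUFA8, NRF1 letters on both strands, chr9:122159754-122159803, minus strand: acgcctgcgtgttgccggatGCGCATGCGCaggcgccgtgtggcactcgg
NDUFS4, YY1 letters, chr5:53560640-53560688, plus strand: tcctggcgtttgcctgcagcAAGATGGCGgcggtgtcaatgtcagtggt

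Of the 81 nuclear members tested, 11 rose in the libraries labelled shikonin, 0 fell and 70 did not pass the test (edgeR's quasi-likelihood test, adjusted p under 0.05 by Benjamini-Hochberg over all 13548 genes). Of all genes tested, 21.9% were called in either direction. The share of nuclear members that rose was 13.6%, beside 10.8% of all genes tested, so the count of rises lay near the background. The share that fell was 0 of 81, beside 11.1% of all genes. No nuclear member was lower at an unadjusted p under 0.05 either, and DESeq2 and limma-voom also called 0 lower. Of the 81, 67 had a log2 fold change above 0, which is 82.7% beside 47.6% of all genes, and the median log2 fold change was 0.13 beside -0.02 over all genes. The values ran from -0.28 for NDUFA2 to 1.09 for COX6B2. The 3 shikonin libraries lay above the 3 control libraries for 17 members (21.0%, beside 18.1% of all genes) and below them for 2 (2.47%, beside 20.3%). Those 2 were NDUFS1 and SDHA. Of all genes tested, 12522 had a canonical transcript of at least 1000 bases, but only 33 of the 81 members did. The shares that fell or lay above 0 were not compared at equal length. The changes were small. No nuclear member that rose changed by more than 1.43-fold, the value of COX7B.

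**Figure D1:**
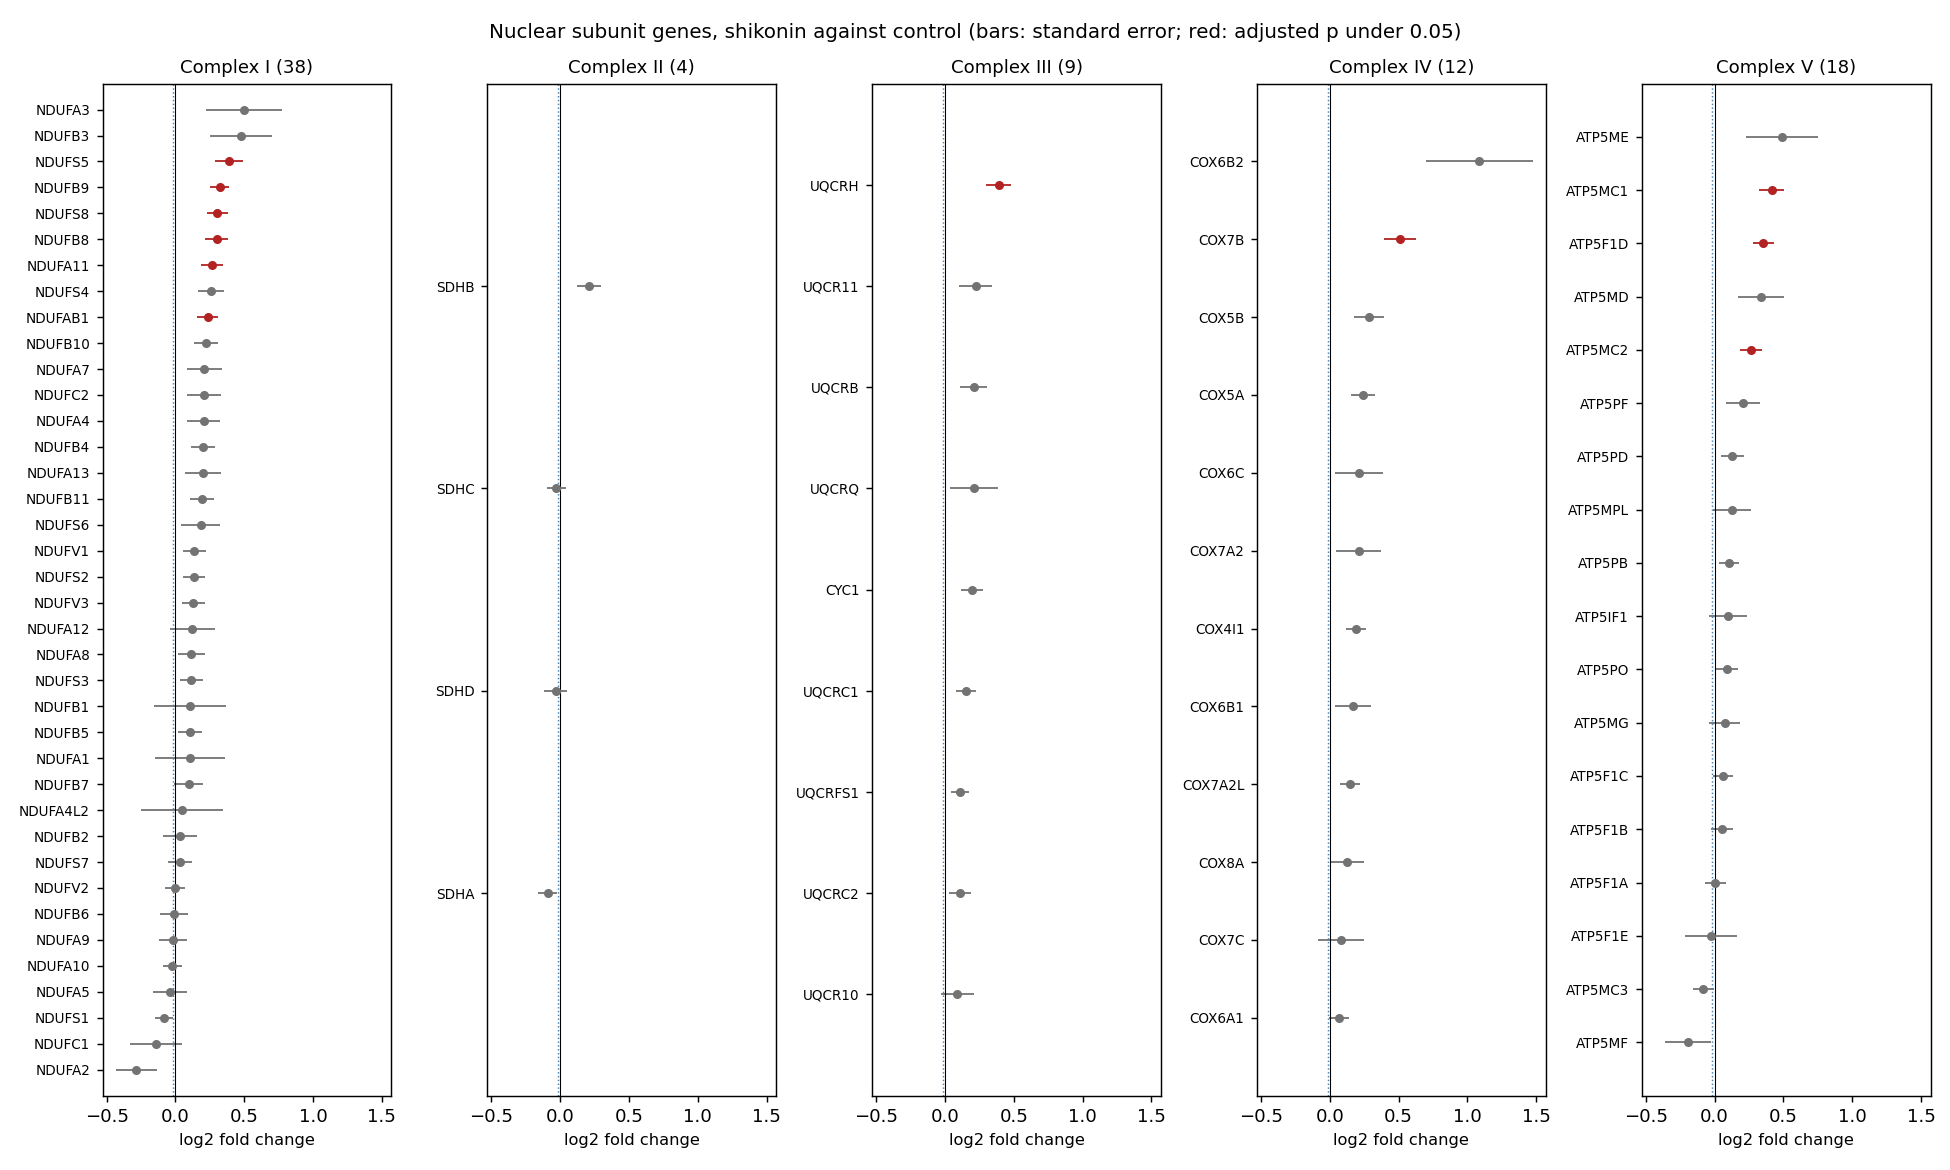
Log2 fold change (x axis) of each of the 81 nuclear members tested, by complex, with bars of 1 standard error from edgeR and red for an adjusted p under 0.05. The dotted line is the median over all 13548 genes (-0.02), and 67 points lie right of 0, 11 of them in red.

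Complex I, the NADH dehydrogenase, has 7 nuclear core subunits that hold the flavin and the iron-sulfur clusters and a larger set of accessory subunits around them. Of its 38 nuclear members tested, 6 rose (15.8%, beside 10.8% of all genes) and 32 did not pass. The median log2 fold change was 0.13, beside -0.02 over all genes. The 38 were grouped by name and include NDUFA4 and NDUFA4L2, which are described further below. The 6 that rose were 1 of the 7 core genes and 5 of the 31 accessory genes. By name, 2 of 14 NDUFA, 2 of 11 NDUFB, 0 of 2 NDUFC, 2 of 8 NDUFS and 0 of 3 NDUFV genes rose.

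NDUFS8, a core subunit that carries iron-sulfur clusters (chromosome 11, 68030617 to 68036644, plus strand, GRCh38), had levels of 99.3, 89.7 and 89.7 CPM in control replicates 1 to 3 and of 119, 121 and 105 CPM in shikonin replicates 1 to 3. The groups did not overlap, and shikonin replicate 3 was the lowest of its group. The means were 92.9 ± 5.55 and 115 ± 9.01 CPM (SD, n = 3 each), with a log2 fold change of 0.31 (SE 0.08, edgeR adjusted p = 0.0127). NDUFB9, an accessory subunit of the membrane arm, had levels of 104.5, 110.5 and 111.9 CPM in the controls and of 136, 143 and 129.8 CPM with shikonin. All 3 shikonin libraries were higher than any control, by 0.32 on the log2 scale (SE 0.07, edgeR adjusted p = 0.00485). NDUFB8, another accessory subunit of the membrane arm, went from 46.6, 48.5 and 53.5 CPM to 61.9, 64.2 and 56.8 CPM. Its groups did not overlap either, and the log2 fold change was 0.30 (SE 0.08, edgeR adjusted p = 0.0188).

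NDUFS5, an accessory subunit that faces the intermembrane space (chromosome 1, 39026318 to 39034636, plus strand), had levels of 42.1, 35.5 and 44.1 CPM in the controls and of 48.2, 59.9 and 51.3 CPM with shikonin. Shikonin replicate 1 was only just above control replicate 3. The log2 fold change was 0.39 (SE 0.10, edgeR adjusted p = 0.0143). NDUFA11, a small membrane subunit (chromosome 19, 5891276 to 5904006, minus strand), went from 120.05, 115 and 128 CPM to 149.6, 157 and 130.2 CPM. Shikonin replicate 3 stood close to control replicate 3, and the log2 fold change was 0.27 (SE 0.08, edgeR adjusted p = 0.027). NDUFAB1, the mitochondrial acyl carrier protein, which also serves fatty acid synthesis (chromosome 16, 23581014 to 23596316, minus strand), went from 43.9, 40.5 and 41.98 CPM to 51.4, 48.5 and 48.9 CPM. Its spread within each group was small (SD 1.69 and 1.58 CPM), and the log2 fold change was 0.24 (SE 0.08, edgeR adjusted p = 0.0431).

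The 6 complex I genes that rose did not rest equally on all libraries. NDUFB9 stayed under an adjusted p of 0.05 when any 1 library was left out. NDUFS5 lost its call without control replicate 2 (edgeR adjusted p = 0.0842) or shikonin replicate 2 (0.0811). NDUFB8 lost it without replicate 1 or 2 of the controls (0.101 and 0.0796) and without replicate 1 or 2 of the shikonin group (0.063 and 0.0811). NDUFA11 lost it without the same 4 libraries (0.1, 0.127, 0.0912 and 0.122). NDUFS8 lost it without replicate 2 or 3 of the controls (0.0692 and 0.0524) and without replicate 1 or 2 of the shikonin group (0.0536 and 0.0582). NDUFAB1 kept it only without shikonin replicate 3.

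The other core genes of complex I did not pass. NDUFV2, which belongs to the NADH-binding module and carries an iron-sulfur cluster, had 56.9, 59.3 and 59.9 CPM in the controls and 58.6, 61.4 and 55.9 CPM with shikonin, and these ranges overlap. Its log2 fold change was -0.00 (SE 0.07, edgeR adjusted p = 0.986). NDUFS1, the large iron-sulfur subunit of the same module, had 117, 111 and 113 CPM in the controls and 106, 107 and 109 CPM with shikonin. Every shikonin library was lower, yet the difference was small at -0.09 (SE 0.07, edgeR adjusted p = 0.387). NDUFA2, an accessory subunit, had the lowest log2 fold change of the 81 (-0.28, SE 0.15, edgeR adjusted p = 0.192), with 36.0 CPM in control replicate 3 and 20.1 to 24.2 CPM in the other 5 libraries. NDUFA6, another accessory subunit, had only 0 to 3.18 counts per library and was not tested. The reason for this low count is not known, and it may not reflect the expression of a subunit that is otherwise found in most cells. Control replicate 3 was apart for NDUFC2 as well, a membrane arm subunit with 38.8 CPM there and 52.1 to 64.004 CPM elsewhere. The readthrough locus NDUFC2-KCTD14, which shares its exons, had 9.43 CPM in that library and 0.364 to 3.96 CPM in the others.

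Complex II, succinate dehydrogenase, also belongs to the citric acid cycle and is encoded by the nucleus alone. None of its 4 genes passed (0 of 4 by edgeR, DESeq2 and limma-voom, with 1 higher and 0 lower at an unadjusted p under 0.05), and their median log2 fold change was -0.03. SDHA, the flavin subunit, had 91.5, 90.3 and 94.9 CPM in the controls and 89.8, 88.2 and 82.0 CPM with shikonin. The shikonin libraries were lower without overlap by a narrow margin (log2 fold change -0.09, SE 0.07, edgeR adjusted p = 0.39). SDHB, the iron-sulfur subunit, lay the other way, with 45.4, 40.0 and 47.8 CPM against 50.3, 53.1 and 50.7 CPM (0.21, SE 0.08, edgeR adjusted p = 0.091). The membrane anchors SDHC and SDHD overlapped between the groups, with log2 fold changes of -0.03 each. The summed level of the 4 genes was 313 ± 5.95 CPM in the controls and 311 ± 3.02 CPM with shikonin (SD, n = 3 each).

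Complex III, the cytochrome bc1 complex, passes electrons from ubiquinol to cytochrome c. Of its 9 nuclear members tested, 1 rose (11.1%, beside 10.8% of all genes) and 8 did not pass. All 9 log2 fold changes were above 0, beside 47.6% of all genes, with a median of 0.20. UQCRH, the hinge protein that helps bind cytochrome c1 to cytochrome c (chromosome 1, 46303698 to 46316776, plus strand), had 54.0, 48.9 and 63.5 CPM in the controls and 70.9, 76.4 and 70.9 CPM with shikonin. The groups did not overlap, with control replicate 3 the nearest control, and the log2 fold change was 0.39 (SE 0.09, edgeR adjusted p = 0.00792). Without control replicate 2 it just missed the threshold (0.0552). Its promoter is the one with the ETS letters shown above. CYC1, the cytochrome c1 heme protein, had 174, 172 and 175 CPM in the controls and 212, 212 and 174 CPM with shikonin. Shikonin replicate 3 sat among the controls while the other 2 libraries were clearly higher, and CYC1 did not pass (0.20, SE 0.08, edgeR adjusted p = 0.0983). UQCRFS1, the Rieske iron-sulfur protein, had 81.6, 82.8 and 77.3 CPM against 88.8, 85.5 and 86.4 CPM (0.11, SE 0.07, edgeR adjusted p = 0.279). UQCRHL, a copy of UQCRH, had 1 to 6 counts and was not tested.

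Complex IV, cytochrome c oxidase, reduces oxygen to water. Of its 12 nuclear members tested, 1 rose (8.33%, beside 10.8% of all genes) and 11 did not pass. All 12 log2 fold changes were above 0, beside 47.6% of all genes, with a median of 0.20. DESeq2 called 4 of the 12 higher, COX4I1, COX5A, COX5B and COX7B. COX7B, a small single-pass subunit (chromosome X, 77899440 to 77907376, plus strand), had 24.4, 21.8 and 30.1 CPM in the controls and 34.9, 40.0 and 33.9 CPM with shikonin. The groups did not overlap, and the means were 25.4 ± 4.28 and 36.3 ± 3.30 CPM (SD, n = 3 each), with a log2 fold change of 0.51 (SE 0.12, edgeR adjusted p = 0.00635). Together with NDUFB9, COX7B was called under all 16 alternative settings, with a highest adjusted p of 0.042 for COX7B and 0.041 for NDUFB9. COX4I1, the largest nuclear subunit and a regulatory one, had 215, 233 and 221 CPM against 262, 266 and 238 CPM. Its groups did not overlap, but it did not pass in edgeR (0.19, SE 0.07, adjusted p = 0.0726).

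Tissue isoforms of complex IV could be compared where both were tested. COX6B1 is the common form and COX6B2 the form known from testis. COX6B2 had 14, 15 and 12 counts in the controls and 28, 34 and 25 counts with shikonin, which is 0.727, 0.759 and 0.595 CPM against 1.34, 1.87 and 1.24 CPM. Every shikonin library was higher than every control, at 2.12-fold, yet with these few counts it did not pass (log2 fold change 1.09, SE 0.39, edgeR adjusted p = 0.0572). COX6B1 had 44.05, 44.2 and 65.0 CPM against 56.9, 63.9 and 51.5 CPM, with control replicate 3 the highest of all 6 libraries (0.17, SE 0.13, edgeR adjusted p = 0.39). Per kilobase of the canonical GENCODE transcript, the mean level was 111 CPM for COX6B1 and 0.695 CPM for COX6B2. COX7A2 and COX7A2L, of which the second is known to join complexes III and IV into supercomplexes, did not pass. COX7A2 had 31.3, 27.9 and 50.3 CPM against 40.1, 47.7 and 39.2 CPM (0.21, SE 0.16, edgeR adjusted p = 0.388). COX7A2L had 78.7, 86.0 and 77.0 CPM against 91.0, 92.2 and 84.3 CPM (0.15, SE 0.07, edgeR adjusted p = 0.177). In both, 1 control library was above at least 1 of the shikonin libraries. COX4I2, COX6A2 and COX7B2 had 0 counts in every library, COX7A1 at most 1 and COX8C at most 3, and none of these was tested. At these depths 3 counts correspond to 0.144 to 0.165 CPM, the level that a count of 0 still allows.

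NDUFA4 carries a complex I name but is now known as a subunit of complex IV, and NDUFA4L2 is its paralog, known to be induced in hypoxia. By their names, both were counted and summed with complex I here and not with complex IV. NDUFA4 had 56.7, 51.5 and 70.3 CPM in the controls and 61.2, 80.8 and 63.96 CPM with shikonin (log2 fold change 0.20, SE 0.12, edgeR adjusted p = 0.236). NDUFA4L2 had 39, 45 and 48 counts in the controls and 54, 51 and 31 counts with shikonin (0.05, SE 0.30, edgeR adjusted p = 0.928). Neither separated the groups. Per kilobase, the mean level was 31.5 CPM for NDUFA4 and 2.41 CPM for NDUFA4L2.

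Complex V, the ATP synthase, is a rotary enzyme with a soluble F1 head and a membrane ring of c subunits. Of its 18 nuclear members tested, 3 rose (16.7%, beside 10.8% of all genes) and 15 did not pass. The median log2 fold change was 0.10, beside -0.02 over all genes. The members that rose were 1 of the 5 genes of the F1 head and 2 of the 3 genes for the c subunit, while 0 of the other 10 passed. Those 10 include ATP5IF1, the inhibitory factor of the enzyme, which was counted by its symbol though it is not a subunit. ATP5F1D, the delta subunit of the central stalk (chromosome 19, 1241746 to 1244825, plus strand), had 123.4, 135 and 122 CPM in the controls and 169, 168 and 148 CPM with shikonin. The groups did not overlap, with means of 127 ± 7.08 and 162 ± 11.7 CPM (SD, n = 3 each) and a log2 fold change of 0.35 (SE 0.08, edgeR adjusted p = 0.00473). The catalytic beta subunit ATP5F1B had 569, 547 and 539.9 CPM in the controls and 566, 625 and 528 CPM with shikonin. These values overlap (0.05, SE 0.08, edgeR adjusted p = 0.677). With a mean of 319.8 CPM per kilobase, ATP5F1B had the highest level per length among the nuclear core catalytic genes, followed by CYC1 (156.4), NDUFS8 (141) and NDUFV2 (68.5). This order depends on the length of the 1 canonical transcript used per gene. ATP5F1A, also of the F1 head, had a mean of 303 CPM, above the 186 CPM of CYC1. With a listed length of 5761 bases, ATP5F1A had 52.5 CPM per kilobase.

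ATP5MC1, ATP5MC2 and ATP5MC3 are 3 genes that encode the same mature c subunit behind different import sequences. ATP5MC1 (chromosome 17, 48892765 to 48895871, plus strand) had 25.0, 23.3 and 23.1 CPM in the controls and 32.7, 32.8 and 29.7 CPM with shikonin (log2 fold change 0.42, SE 0.09, edgeR adjusted p = 0.00544). ATP5MC2 (chromosome 12, 53632726 to 53677408, minus strand) had 78.3, 73.1 and 72.5 CPM against 89.9, 97.0 and 81.8 CPM (0.26, SE 0.08, edgeR adjusted p = 0.0267). Both separated the groups. ATP5MC3 did not, with 89.8, 91.6 and 104 CPM in the controls and 93.3, 90.3 and 86.4 CPM with shikonin (-0.08, SE 0.08, edgeR adjusted p = 0.486), and whether it differs from the other two in response was not tested. The sum over the 3 genes was 194 ± 5.95 CPM in the controls and 211 ± 11.8 CPM with shikonin (SD, n = 3 each). Per kilobase, mean levels were 43.0 CPM for ATP5MC1, 129.96 CPM for ATP5MC2 and 35.8 CPM for ATP5MC3. The canonical lengths used were 646, 632 and 2587 bases. Without division by length, the means over all 6 libraries were 27.8, 82.1 and 92.6 CPM. ATP5F1D and ATP5MC1 stayed called whichever single library was left out. ATP5MC2 lost its call without any one of the controls (edgeR adjusted p = 0.0569, 0.107 and 0.0923 for replicates 1 to 3) and without replicate 1 or 2 of the shikonin group (0.074 and 0.126). Its promoter held the NRF1 letters shown above. ATP5MGL had 0 counts in every library.

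The count of nuclear members that rose changed with the libraries in the fit. Leaving out replicate 1, 2 or 3 of the controls gave 7, 4 and 21, and leaving out replicate 1, 2 or 3 of the shikonin group gave 7, 5 and 21. The share of all genes that rose changed as well, to 6.25%, 6.78%, 8.33%, 7.54%, 6.85% and 15.1%. COX7B, NDUFB9, ATP5F1D and ATP5MC1 were in every one of these 6 lists. Without control replicate 3 the nuclear median log2 fold change was 0.24 in place of 0.13, and COX6C, COX7C, COX7A2, COX8A, UQCRQ and UQCR11 were among those that rose. Without both control replicate 3 and shikonin replicate 1, an alternative chosen after seeing the data, 17 rose, beside 6.22% of all genes, and the median was 0.24. In that fit ATP5F1D (edgeR adjusted p = 0.0827) and ATP5MC1 (0.0617) did not pass.

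Control replicate 3 stood apart from the other controls in the short members. It had the highest level of all 6 libraries for 21 of the 81 nuclear members, compared with 4 for control replicate 1 and 1 for control replicate 2. Shikonin replicate 2 was the highest for 42, shikonin replicate 1 for 8 and shikonin replicate 3 for 5. The same counts were not made over all genes, so whether these members differ from other genes in this was not tested. Members were then set out by the length of their canonical GENCODE transcript, which need not be the transcript these cells use. Of the 21 members under 600 bases, 20 were higher in control replicate 3 than in the mean of control replicates 1 and 2, with a median log2 ratio of 0.37. Of the 27 members from 600 to below 1000 bases it was 20, with a median of 0.15. Of the 33 members of at least 1000 bases it was again 20, with a median of 0.02. Over all genes of these lengths the medians were 0.24, 0.07 and -0.01. COX7C, a small complex IV subunit, had 38.1 and 38.2 CPM in control replicates 1 and 2, 66.1 CPM in control replicate 3 and 43.7, 57.4 and 49.95 CPM with shikonin. COX6C, a neighbour in the same complex, had 22.7, 21.1 and 39.6 CPM against 30.8, 31.7 and 34.4 CPM. In both, control replicate 3 was the highest of all 6 libraries and the other controls were the lowest. These 2 genes, of 629 and 744 bases, were named after their values were seen. Their log2 ratios of control replicate 3 to the other controls were 0.79 and 0.85, far above the median of 0.15 for their length class.

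The members that rose were also mostly short. By length class, 3 of 21 (14.3%), 7 of 27 (25.9%) and 1 of 33 (3.03%) rose, beside 14.7%, 23.9% and 9.97% of all genes of the same lengths. The median log2 fold changes of the members were 0.18, 0.20 and 0.11, beside 0.13, 0.16 and -0.02 over all genes of these lengths. When transcript length and GC content were entered as an offset, 8 nuclear members rose, 1 fell (NDUFA2), and the median was 0.06. The share that rose was then 9.88%, below the 12.7% of all genes that rose under the same setting. Under it, COX7B, NDUFB9, NDUFS5, UQCRH, ATP5F1D and ATP5MC1 remained called, NDUFV3 and UQCRB were added, and NDUFS8, NDUFB8, NDUFA11, NDUFAB1 and ATP5MC2 were lost.

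**Figure D2:**
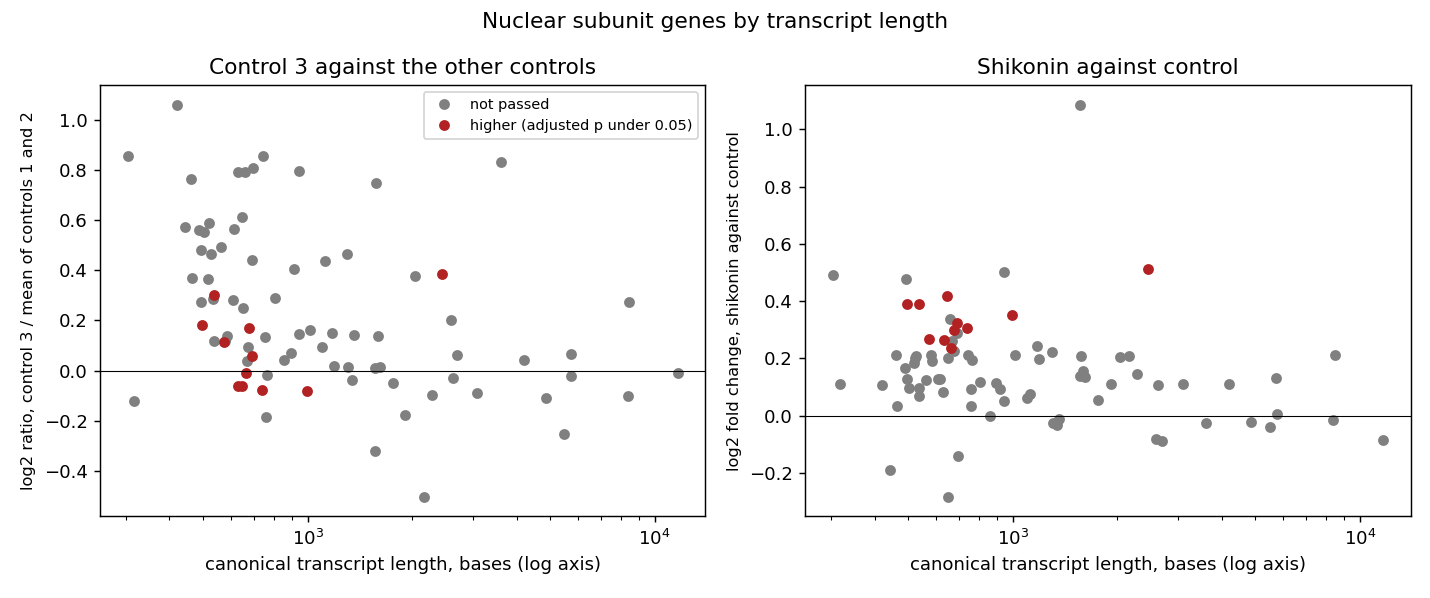
Each point is 1 of the 81 nuclear members tested, by the length of its canonical transcript in bases (x axis, log scale). On the left the y axis is the log2 ratio of control replicate 3 to the mean of control replicates 1 and 2, and on the right the log2 fold change of shikonin against control, with members called higher in red. On the left the points under 600 bases lie mostly above 0 (20 of 21), and on the right 10 of the 11 red points are under 1000 bases.

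The 13 protein genes of mitochondrial DNA were more abundant per length of transcript than any nuclear member, apart from MT-ND4L and MT-ATP8. Per kilobase, the mean level was 10631 CPM for MT-CO3, 10143 CPM for MT-CO1, 6728 CPM for MT-CO2 and 6188 CPM for MT-ATP6, and it was 923.9 CPM for MT-ND6, the lowest of the other 11. MT-ND4L had 135 and MT-ATP8 42.5 CPM per kilobase. These are the genes at the upstream side of the overlaps printed above, whose partners MT-ND4 and MT-ATP6 had 4112 and 6188 CPM per kilobase. Each pair is known to share 1 messenger, and the part of read assignment in the listed difference within a pair was not tested.

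Of the 13 genes, 1 rose (7.69%, beside 10.8% of all genes), 0 fell and 12 did not pass in edgeR. At an unadjusted p under 0.05, 4 were higher and 0 lower, and DESeq2 and limma-voom called 0 in either direction. The median log2 fold change was 0.24, beside -0.02 over all genes. Of the 13, 11 (84.6%) were above 0, beside 47.6% of all genes. Without shikonin replicate 1 the median was 0.10. In that fit MT-CO1, MT-ATP6, MT-ND4, MT-ND5 and MT-ND6 had log2 fold changes below 0 and the others above 0. MT-ND2, a proton-pumping subunit of complex I (chromosome M, 4470 to 5511, plus strand), was the gene that rose. It had 2223, 2538 and 2729 CPM in the controls and 4765, 2855 and 2819 CPM with shikonin. The groups did not overlap, but shikonin replicate 1 was far above every other library while the other 2 shikonin libraries were just above control replicate 3. The log2 fold change was 0.48 (SE 0.16, edgeR adjusted p = 0.0461), and without shikonin replicate 1 it was 0.18 with an adjusted p of 0.264. It also missed the threshold without control replicate 1 (0.189) or control replicate 2 (0.108), with DESeq2 (0.212) and with limma-voom (0.0569).

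**Figure D3:**
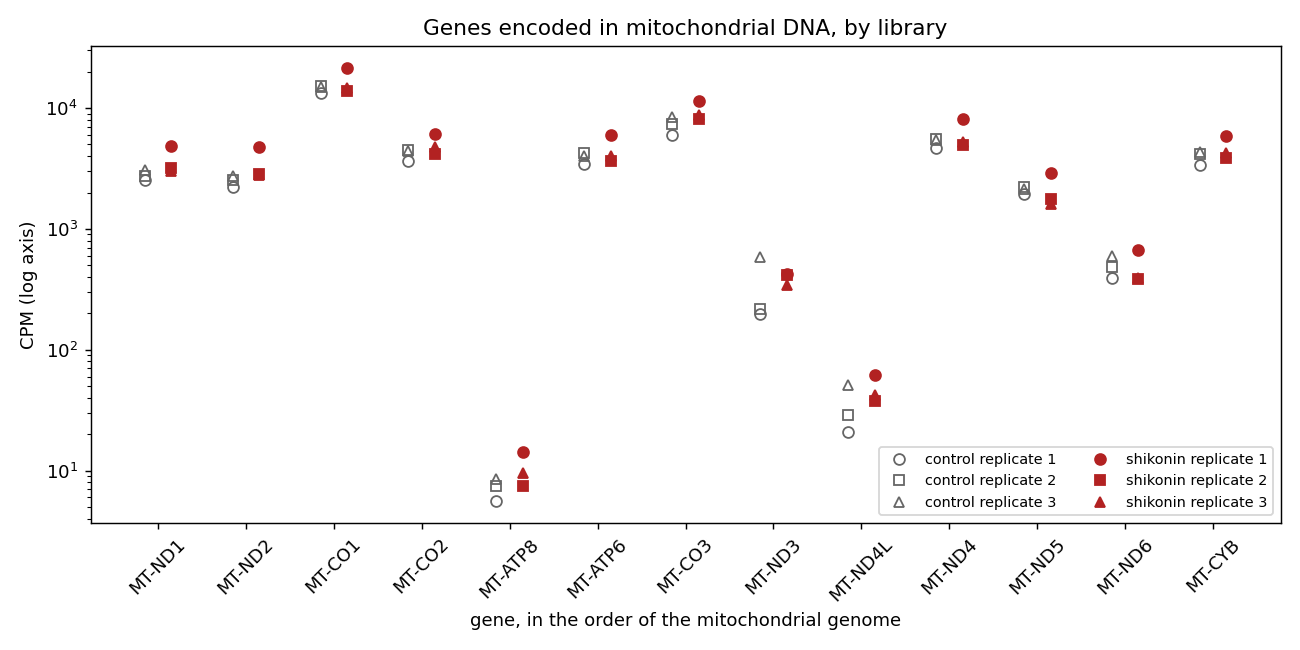
CPM (y axis, log scale) of the 13 protein genes of mitochondrial DNA in the order of that genome (x axis), 1 point per library, open for control and filled for shikonin. Shikonin replicate 1 is the highest library for 12 of the 13 genes and control replicate 3 for MT-ND3.

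The remaining mitochondrial genes of complex I are the other membrane arm subunits. MT-ND1 had 2544, 2741 and 3098 CPM in the controls and 4886, 3196 and 3017 CPM with shikonin (log2 fold change 0.40, SE 0.15, edgeR adjusted p = 0.0637). MT-ND4 had 4640, 5571 and 5413 CPM against 8144, 4976 and 5249.7 CPM (0.23, SE 0.15, edgeR adjusted p = 0.296). In both, shikonin replicate 1 alone was above all the controls by a wide margin. MT-ND5 had 1956, 2236 and 2146 CPM against 2908, 1759 and 1614 CPM (-0.01, SE 0.16, edgeR adjusted p = 0.967). Here the other 2 shikonin libraries were below every control, and without shikonin replicate 1 MT-ND5 was lower by the test (log2 fold change -0.33, edgeR adjusted p = 0.0441). MT-ND6, the only one of the 13 on the other strand and known to lack a poly(A) tail, had 394, 481 and 594 CPM against 667, 382 and 392 CPM (-0.03, SE 0.18, edgeR adjusted p = 0.93).

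MT-ND3 and MT-ND4L, neighbours in the genome and the shortest genes of complex I there, showed another pattern. MT-ND3 had 199, 216 and 584 CPM in the controls and 423, 417 and 343 CPM with shikonin (log2 fold change 0.24, SE 0.28, edgeR adjusted p = 0.58). MT-ND4L had 20.9, 28.9 and 50.6 CPM against 61.2, 37.5 and 42.2 CPM (0.49, SE 0.24, edgeR adjusted p = 0.158). In both, control replicates 1 and 2 were the lowest libraries and control replicate 3 was well above them, as in the short nuclear members. Without control replicate 3, the log2 fold change was 0.93 for MT-ND3 (edgeR adjusted p = 3.37e-05) and 0.92 for MT-ND4L (edgeR adjusted p = 0.00249).

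MT-CYB, the cytochrome b of complex III, had 3411, 4208 and 4294 CPM in the controls and 5852, 3859 and 4222 CPM with shikonin (log2 fold change 0.23, SE 0.14, edgeR adjusted p = 0.264). The catalytic core of complex IV comes from MT-CO1, MT-CO2 and MT-CO3. MT-CO1, with the heme and copper centre, had 13378, 15244 and 15014 CPM against 21627, 13809 and 14769 CPM (0.20, SE 0.14, edgeR adjusted p = 0.339). MT-CO2, which takes electrons from cytochrome c, had 3644, 4483 and 4394 CPM against 6146, 4176 and 4770 CPM (0.27, SE 0.13, edgeR adjusted p = 0.153). MT-CO3 had 5989, 7385 and 8364 CPM against 11450, 8084 and 8737 CPM (0.38, SE 0.14, edgeR adjusted p = 0.0632). In all 4 genes shikonin replicate 1 was the highest library and control replicate 1 the lowest. Of complex V, MT-ATP6 had 3442, 4239 and 3993 CPM against 6004, 3621 and 3986 CPM (0.22, SE 0.15, edgeR adjusted p = 0.322). MT-ATP8 had 5.61, 7.49 and 8.49 CPM against 14.2, 7.42 and 9.58 CPM (0.54, SE 0.22, edgeR adjusted p = 0.0935), and the groups of both overlapped.

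Nuclear copies of mitochondrial genes can share reads with them. MTND2P28 had 5.35 to 12.8 CPM, MTCO1P12 17.5 to 41.8 CPM and MTATP6P1 99.2 to 244 CPM, and none passed. Their values were not whole in any library, and MTCO1P12 and MTATP6P1 were highest in control replicate 3.

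Summed over the members, the mitochondrial genome gave 41845, 49377 and 50683 CPM in the controls and 72948, 47178 and 49970 CPM with shikonin. Without shikonin replicate 1, the shikonin libraries lay within the range of the controls. The nuclear members summed to 5034.7, 4931 and 5394 CPM in the controls and 5592, 5945 and 5321 CPM with shikonin. Here shikonin replicate 3 was below control replicate 3. The ratio of the mitochondrial to the nuclear sum was 8.31, 10.01 and 9.40 in the controls and 13.05, 7.94 and 9.39 with shikonin, and shikonin replicates 1 and 2 gave the highest and the lowest value of all 6. The shikonin libraries thus did not share a direction in this balance. With 3 libraries against 3, an exact two-sided permutation test cannot give a p below 0.1, so no p is given for the sums.

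**Figure D4:**
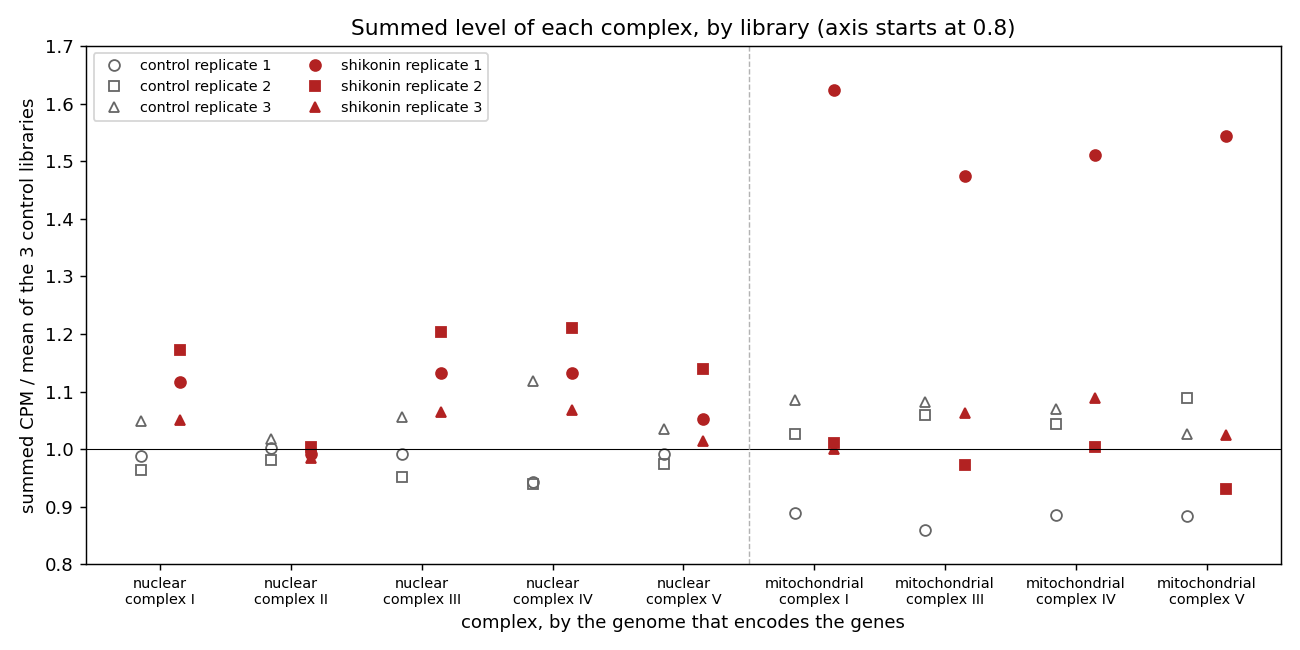
Summed CPM of the members of each complex in each library, divided by the mean of the 3 controls (y axis, which starts at 0.8), for nuclear genes on the left and mitochondrial genes on the right. Shikonin replicate 1 lies apart in all 4 mitochondrial sums, and the nuclear complex II sums of all 6 libraries lie close to 1.

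By complex, the nuclear sum was 1.11-fold for complex I, 0.993-fold for complex II, 1.13-fold for complex III, 1.14-fold for complex IV and 1.07-fold for complex V, shikonin over control. For complex I it was 1635 ± 72.8 CPM in the controls and 1820.2 ± 99.2 CPM with shikonin (SD, n = 3 each). For complex IV it was 717, 716 and 851 CPM in the controls and 861, 922 and 813 CPM with shikonin, so control replicate 3 lay within the shikonin range.

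Genes that build and run the system were listed beside the subunits, and their counts are to be read beside the 10.8% of all genes that rose and the 11.1% that fell. Assembly factors of complex I do not stay in the finished enzyme, and of 18 tested, 5 rose, 0 fell and 13 did not pass, with a median log2 fold change of 0.25, beside -0.02 over all genes. At an unadjusted p under 0.05, 6 were higher and 0 lower, and DESeq2 and limma-voom called 5 higher and 0 lower. NDUFAF3, which acts early in assembly, had 28.5, 28.6 and 31.6 CPM in the controls and 46.1, 43.9 and 39.9 CPM with shikonin. Its groups lay well apart, at 0.55 on the log2 scale (SE 0.09, edgeR adjusted p = 0.000763). NDUFAF8, another assembly factor, had 12.5, 11.7 and 13.2 CPM against 19.03, 24.2 and 18.5 CPM (0.72, SE 0.13, edgeR adjusted p = 0.00144). Both values exceeded that of every complex I subunit that rose, and the difference was not tested.

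Of 37 assembly factors of complexes II to V tested, 8 rose, 0 fell and 29 did not pass, with a median of 0.09, beside 10.8% and 11.1% of all genes. At an unadjusted p under 0.05, 12 were higher and 1 lower, and DESeq2 called 8 and limma-voom 7 higher, with 0 lower. COA4, which serves complex IV, went from 28.1, 29.04 and 30.2 CPM to 43.1, 45.1 and 41.5 CPM (0.57, SE 0.08, edgeR adjusted p = 0.000349). UQCC2, which serves the translation of cytochrome b for complex III, went from 12.5, 14.1 and 14.3 CPM to 21.4, 20.3 and 21.0 CPM (0.62, SE 0.11, edgeR adjusted p = 0.00149). Both kept the groups apart by several times their spread. SURF1 was not analysed here. The 4 assembly factors named so far were called under all 16 alternatives.

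Of 27 genes for the maintenance and expression of mitochondrial DNA, 6 rose, 1 fell and 20 did not pass, with a median of 0.17, beside 10.8% and 11.1% of all genes. Without adjustment, 9 were higher and 1 lower at a p under 0.05, and DESeq2 and limma-voom called 6 higher and 1 lower. TWNK, the replicative helicase of mitochondrial DNA, had 74.8, 77.6 and 73.6 CPM in the controls and 116, 121 and 106 CPM with shikonin (0.60, SE 0.07, edgeR adjusted p = 0.000106). SSBP1, its single-strand binding protein, had 14.2, 7.54 and 6.85 CPM against 15.97, 18.5 and 19.2 CPM (0.91, SE 0.21, edgeR adjusted p = 0.00708), with control replicate 1 near the shikonin libraries. POLG, the catalytic subunit of the DNA polymerase, moved the other way, from 92.6, 91.2 and 90.6 CPM to 71.3, 73.7 and 64.7 CPM (-0.39, SE 0.07, edgeR adjusted p = 0.00213). These 3 proteins work together at the replication fork, and their genes did not move in 1 direction. TFAM, which packages mitochondrial DNA and starts its transcription, had 42.1, 39.0 and 36.6 CPM against 42.8, 34.6 and 45.7 CPM (0.07, SE 0.10, edgeR adjusted p = 0.684). POLRMT, the RNA polymerase, had 211, 195 and 195 CPM against 234, 231 and 197 CPM (0.14, SE 0.08, edgeR adjusted p = 0.236). Neither TFAM nor POLRMT passed, and POLRMT was called higher only without shikonin replicate 3 (0.00955).

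Of 7 transcriptional regulators of respiration tested, 2 rose, 0 fell and 5 did not pass. At an unadjusted p under 0.05 the counts were 2 and 0, and DESeq2 and limma-voom gave the same. ESRRA, a nuclear receptor that drives respiratory genes, went from 72.8, 75.9 and 75.3 CPM to 95.1, 103 and 84.7 CPM (0.34, SE 0.08, edgeR adjusted p = 0.00826). PPRC1, a coactivator, went from 118, 111.6 and 96.8 CPM to 134, 148 and 122 CPM (0.31, SE 0.09, edgeR adjusted p = 0.0221). NRF1 had 25.9, 22.2 and 22.6 CPM against 25.5, 25.6 and 24.6 CPM and did not pass (0.10, SE 0.10, edgeR adjusted p = 0.512). PPARGC1A, the coactivator PGC-1 alpha, had 0 counts in all 6 libraries and was not tested.

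Of 18 genes of pyruvate dehydrogenase and the citric acid cycle, 1 rose, 0 fell and 17 did not pass, with a median of 0.00. At an unadjusted p under 0.05 and by DESeq2 and limma-voom the counts were also 1 and 0. MDH2, the malate dehydrogenase, went from 229.9, 237 and 231 CPM to 281, 323 and 246 CPM (edgeR adjusted p = 0.0328, log2 fold change 0.28, SE 0.09). Of 21 genes of electron carriers and coenzyme Q, 3 rose, 1 fell and 17 did not pass, beside 10.8% and 11.1% of all genes. Without adjustment, 5 were higher and 2 lower at a p under 0.05, limma-voom called 3 higher and 1 lower, and DESeq2 called 3 higher and 0 lower. CYCS, cytochrome c, went from 145, 141 and 134 CPM to 157, 164 and 180.25 CPM (0.26, SE 0.07, edgeR adjusted p = 0.0223). COQ8A, an atypical kinase of coenzyme Q synthesis, went from 46.0, 47.0 and 44.6 CPM to 61.6, 57.8 and 50.2 CPM (0.30, SE 0.09, edgeR adjusted p = 0.0223). SQOR, which feeds electrons from sulfide to coenzyme Q, fell from 30.1, 32.2 and 31.5 CPM to 27.5, 26.3 and 21.5 CPM (-0.32, SE 0.10, edgeR adjusted p = 0.0402).

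Of 7 genes that exchange nucleotides and phosphate across the mitochondrial membranes, 3 rose, 1 fell and 3 did not pass. Of the 3 ADP/ATP carriers tested, 1 rose, 1 fell and 1 did not pass. SLC25A6, the ANT3 carrier, had 261, 288 and 257 CPM in the controls and 405, 407 and 358 CPM with shikonin (0.54, SE 0.08, edgeR adjusted p = 0.000374). SLC25A4, the ANT1 carrier of heart and muscle, had 37.7, 35.9 and 41.2 CPM against 30.6, 29.2 and 25.1 CPM (-0.43, SE 0.10, edgeR adjusted p = 0.00598). Both kept their calls under all 16 alternatives. SLC25A5, the ANT2 carrier, named after its values were seen, had 223, 219 and 229 CPM against 254, 263 and 223.9 CPM, which overlap (0.14, edgeR adjusted p = 0.204). VDAC1, the pore of the outer membrane, went from 168, 162 and 169 CPM to 189, 212 and 186 CPM (0.23, SE 0.07, edgeR adjusted p = 0.0334). The calls of MDH2, CYCS, COQ8A, SQOR, VDAC1, PPRC1 and ESRRA each failed in at least 2 of the 16 alternatives, with highest adjusted p of 0.168, 0.0991, 0.239, 0.132, 0.149, 0.18 and 0.0537.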

How the data were processed

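The authors sequenced messenger RNA from 3 control and 3 shikonin libraries and deposited estimated counts per gene, not scaled, with 1 column per library and 0 columns unused. Their methods name hg38, TopHat2, featureCounts and DESeq2, but GRCm38 and mm10, builds of the mouse genome, stand in the submitters' processing notes. The gene identifiers are human, and 34979 matched GENCODE release 44. Of the values above 0, 46.5% to 63.3% per library were not whole, so genes that share reads with near-identical copies have uncertain values. The plan had assumed whole counts, and the estimated counts were rounded.

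The rounded counts were fitted with edgeR 4.0.16 under R 4.3.3 (filterByExpr, TMM, glmQLFit, glmQLFTest), with Benjamini-Hochberg adjustment over 13548 genes. The SE was obtained from the log2 fold change and its F statistic. Other settings were limma-voom (limma 3.58.1), DESeq2 1.42.0, other scalings and filters, an offset (spline with 5 degrees of freedom), a replicate block and leaving out libraries. The procedure was also run on simulated counts with planted changes. That simulation held no differences between libraries like those of control replicate 3 or shikonin replicate 1, so it does not bear on them. Members and lists were chosen with earlier results of these data known. By rule, all members may be named, per-library values were required for the mitochondrial genes, the called members with the smallest p, paralogs and the 4 most abundant core catalytic genes, and in each related list the 2 genes with the smallest p per direction were named. The genes lost or added under a setting were named after their values were seen.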

Additional observations from a re-analysis of the deposited data

How the results depend on the processing

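Of the nuclear members, 11 rose in the fit reported, and 4 to 21 did when 1 library was left out, with a median log2 fold change of 0.095 to 0.2382. Without both control replicate 3 and shikonin replicate 1, chosen after seeing the data, 17 rose with a median of 0.2394, beside 6.22% of all genes. With transcript length and GC content as an offset, 8 rose (9.88%, below the 12.7% of all genes) and 1 fell. Of the 13 mitochondrial genes, 1 rose in the fit reported and 0 with DESeq2, limma-voom, library totals as the only scaling or the offset. Without a filter on low counts 7 rose (53.8%, beside 8.09% of all genes), and without both libraries 2 (15.4%, beside 6.22%). Without that filter the median log2 fold change of the 13 was 0.2393, beside 0.2440 in the fit reported. The added calls thus came with smaller adjusted p-values and not with larger changes. When 1 library was left out, 0 to 4 rose and 0 to 1 fell, while 6.25% to 15.1% of all genes rose. With library totals alone the median of all genes was -0.08 and the nuclear median 0.07. The deviations of control and shikonin libraries with the same number correlated at 0.00266, 0.0131 and 0.0371 over 13548 genes. Those with different numbers correlated at -0.106 to 0.102. Whether libraries of the same number were prepared together cannot be told from these values, which show only whether a shared difference is visible. With the replicate block 10 nuclear and 0 mitochondrial members rose, beside 8.75% of all genes, and 9 of the 12 called members remained called. No named gene reversed direction past the threshold. Depth limits the members with few counts, such as COX6B2 and NDUFA4L2.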
